A study of Mus musculus with 2 samples.

Results

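Cytosolic RNA sensing was followed through 7 of the 22060 genes in the deposited count table: Ddx58 (also named Rigi), Ifih1, Dhx58, Mavs, Traf3, Eif2ak2 and Adar. They were picked by gene symbol, each matched to 1 Ensembl identifier. The rule sets no threshold on a measured value, but the genes were chosen with earlier results of these data known. The table holds 2 libraries of bone marrow-derived macrophages from C57BL/6 mice of 8 weeks, 1 from cells with the T403A form of STAT2 (threonine 403 replaced by alanine) and 1 from wild-type cells (WT). Both cultures were grown for 7 days with M-CSF, the factor that turns marrow progenitors into macrophages, and were left untreated (0 h). The sources used here do not say how the T403A allele was made or whether marrow of several animals was pooled. With 1 library per group no difference has a replicate check and no test was possible, so each one compares these libraries and not the genotypes.

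RIG-I, the product of Ddx58, and MDA5, the product of Ifih1, are helicases that recognise viral RNA in the cytosol, RIG-I by its triphosphate or blunt ends and MDA5 by long double-stranded stretches. Both signal through MAVS, a protein of the mitochondrial outer membrane, which recruits TRAF ubiquitin ligases such as TRAF3 and leads to activation of IRF3, IRF7 and type I interferon genes. LGP2, the product of Dhx58, is a related helicase without the signalling domains. PKR, the product of Eif2ak2, stops translation when it binds double-stranded RNA, and the editing enzyme ADAR1, the product of Adar, changes adenosine to inosine in cellular double-stranded RNA and so keeps it from MDA5 and PKR. Type I interferon in turn activates a complex that holds STAT2 and IRF9 and binds the interferon-stimulated response element (ISRE), and Ddx58, Ifih1, Dhx58, Eif2ak2 and the long form of Adar are known targets of that pathway.

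The ISRE is the letter pattern that a STAT2-containing complex reads, so the start regions of the genes are shown first. RefSeq promoter windows (GRCm38.p6, 250 bases before to 50 after a transcript start) were matched for 6 of the 7 genes, 8 windows in all because Adar has 3; Dhx58 had no entry. The ISRE letters, GAAA followed by any 2 bases and a second GAAA, were searched on both strands, and 3.44% of all 32851 windows hold them. They occur once each in the windows of Ddx58, Ifih1 and Eif2ak2, at bases 3 to 12, 33 to 42 and 19 to 28 counted from 1 at the annotated start. Each of the following stretches of 30 bases, read on the gene's own strand, has the matching letters in capitals, which for Ddx58 are the reverse complement of the pattern. For Adar, whose windows hold no full match, the shorter GAAANNGAA is capitalised, a pattern chosen after the sequences were read. It is found in 8.56% of all windows and lies within every match of the longer one. The Adar window shown holds it in 2 places, at bases -249 to -241 and 34 to 42, and the place nearer the start is printed. The windows of Ifih1 and Eif2ak2 also hold the shorter letters in 2 places each. The stretches lie at chr4:40239804-40239833 (minus strand), chr2:62646206-62646235 (minus), chr17:78882535-78882564 (minus) and chr3:89730738-89730767 (plus).
Ddx58: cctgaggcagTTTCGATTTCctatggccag
Ifih1: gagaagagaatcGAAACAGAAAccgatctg
Eif2ak2: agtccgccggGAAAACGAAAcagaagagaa
Adar: ttttcaaggaaacGAAAGTGAActctgggg

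Neither pattern was found in the windows of Mavs or Traf3, which says only that these letters are not in these 300-base windows. The 250 bases before the start are given for both, with the same stretch of Ddx58 for comparison and every CG dinucleotide in capitals. Ddx58 (chr4:40239826-40240075, minus strand) has 12 CG dinucleotides there, Mavs (chr2:131233813-131234062, plus) has 15 and Traf3 (chr12:111166120-111166369, plus) has 49, against a median of 6 over all windows. The share of G and C was 53.6% for Ddx58, 65.2% for Mavs and 85.2% for Traf3. A second pattern, the gamma-activated site TTCNNNGAA (8.30% of all windows), was found in 1 window each of Eif2ak2, at bases -178 to -170, and Adar, at bases 23 to 31 of the window that also holds the shorter ISRE letters.
Ddx58: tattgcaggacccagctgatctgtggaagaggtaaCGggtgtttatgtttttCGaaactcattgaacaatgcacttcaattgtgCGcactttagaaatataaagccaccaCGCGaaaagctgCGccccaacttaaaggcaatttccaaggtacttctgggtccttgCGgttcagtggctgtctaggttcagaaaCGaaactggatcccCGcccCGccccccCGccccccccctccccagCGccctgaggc
Mavs: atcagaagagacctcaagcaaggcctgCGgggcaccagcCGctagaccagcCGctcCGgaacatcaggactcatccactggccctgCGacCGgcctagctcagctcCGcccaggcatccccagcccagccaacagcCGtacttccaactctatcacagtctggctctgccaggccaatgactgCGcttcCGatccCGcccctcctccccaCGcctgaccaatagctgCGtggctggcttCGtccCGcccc
Traf3: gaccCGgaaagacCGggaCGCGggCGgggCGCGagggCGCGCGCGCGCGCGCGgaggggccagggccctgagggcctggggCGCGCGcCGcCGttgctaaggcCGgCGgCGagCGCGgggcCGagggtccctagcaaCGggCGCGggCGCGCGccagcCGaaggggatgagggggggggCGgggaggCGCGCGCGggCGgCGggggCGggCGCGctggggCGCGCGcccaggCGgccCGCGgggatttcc

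The 3 receptor genes, the kinase gene Eif2ak2 and the editing gene Adar were lower in the T403A library, whereas the adaptor genes Mavs and Traf3 were within 1.5-fold. Counts were scaled by TMM, which sets the libraries equal over the bulk of genes, and expressed as CPM, counts per 1e6 of the scaled total. A gene was called lower or higher when its ratio reached 1.5-fold and the exact 95% interval of the ratio excluded 1; the interval covers counting error only. By this rule 5 of the 7 genes were lower, 0 were higher and 2 were neither. Of the 11199 genes that reached 20 counts over both libraries, 10.8% were lower and 13.5% were higher, and all 7 genes are among the 11199. At a threshold of 2-fold the same 5 genes were lower and 0 were higher, against 6.08% and 7.21% of the 11199. The median log2 ratio of the 7 genes was -1.79, against 0.01 over all 11199 genes. The 7 genes together took 0.0478% of the counts in the T403A library (95% exact binomial interval 0.0468 to 0.0488) and 0.129% in the WT library (0.127 to 0.131).

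Ddx58 (ENSMUSG00000040296, chr4:40203773-40239828, minus strand, protein-coding as are the other 6) had 1447 counts in the T403A library and 6624 in the WT library. That is 72.6 CPM in T403A and 442 CPM in WT, a ratio of 0.164 or 6.08-fold lower (5.75 to 6.45). Dhx58 (ENSMUSG00000017830, chr11:100694884-100704271, minus strand) had 444 counts in T403A and 2221 in WT, or 22.3 and 148 CPM. It was 6.65-fold lower in T403A (6.00 to 7.38), the lowest ratio of the 7 genes. The LGP2 gene thus differed about as much as the RIG-I gene, and more than the gene of the other signalling receptor. Ifih1 (ENSMUSG00000026896, chr2:62595798-62646255, minus strand), which encodes MDA5, had 1147 counts in T403A and 3129 in WT, 57.5 and 209 CPM. It was 3.63-fold lower (3.39 to 3.88). Summed over the 3 receptor genes, the T403A library held 152 CPM and the WT library 798 CPM, 5.24-fold lower (5.03 to 5.45).

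Eif2ak2 (ENSMUSG00000024079, chr17:78852564-78882573, minus strand), the PKR gene, had 1288 counts in T403A and 3351 in WT, 64.6 and 223 CPM. It was 3.46-fold lower in T403A (3.24 to 3.69). Adar (ENSMUSG00000027951, chr3:89715022-89753446, plus strand) had 1438 counts in T403A and 2981 in WT, 72.1 and 199 CPM. It was 2.76-fold lower (2.59 to 2.94), the smallest difference among the 5 lower genes. Adar makes a long, interferon-inducible form and a short, constitutive form from different starts, and a count per gene sums both, so the ratio of neither form can be read from it.

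The adaptors behaved otherwise. Mavs (ENSMUSG00000037523, chr2:131234063-131248025, plus strand) had 1486 counts in T403A and 957 in WT, 74.5 and 63.8 CPM, a ratio of 1.17 (1.08 to 1.27). Traf3 (ENSMUSG00000021277, chr12:111166370-111267153, plus strand) had 1669 counts in T403A and 1408 in WT, 83.7 and 93.9 CPM, a ratio of 0.892 (0.830 to 0.958). Neither reached 1.5-fold, and with scaling by total count the Traf3 ratio was on the other side of 1, at 1.02, while Mavs was at 1.33. Mavs and Traf3 together had 158 CPM in each library.

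**Figure D1:**
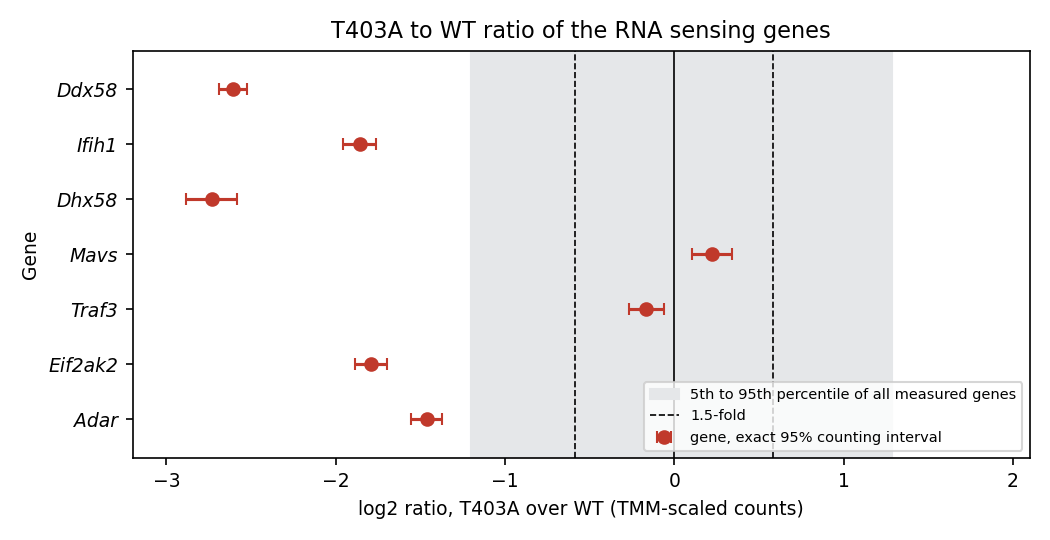
log2 ratio of the T403A over the WT library for each gene after TMM scaling. Points are the ratios, bars their exact 95% counting intervals, dashed lines 1.5-fold, and the grey band runs from the 5th to the 95th percentile of all measured genes (-1.20 to 1.29). Ddx58, Ifih1, Dhx58, Eif2ak2 and Adar lie left of the band, Mavs and Traf3 within it and within 1.5-fold.

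Among the 11199 measured genes ranked from the lowest T403A to WT ratio, Dhx58 held rank 167, Ddx58 182, Ifih1 309, Eif2ak2 327 and Adar 434. These ranks fall in the lowest 1.49% to 3.88% of genes. Traf3 held rank 3716 and Mavs 7634, in the middle of the distribution.

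The order of the 7 genes within a library was compared per length, as TPM from the deposited gene length, with exact Poisson intervals. In the T403A library Mavs was first at 80.9 TPM (76.8 to 85.1). It was followed by Eif2ak2 at 45.8, Traf3 at 41.3, Ddx58 at 37.4, Adar at 32.2, Ifih1 at 25.6 and Dhx58 at 24.7 TPM. Only the last neighbours, Ifih1 and Dhx58, had intervals that overlapped in T403A. In the WT library Ddx58 was first at 189 TPM (184 to 193). Dhx58 followed at 136, Eif2ak2 at 132, Ifih1 at 77.0, Adar at 73.8, Mavs at 57.5 and Traf3 at 38.5 TPM. The intervals of Dhx58 and Eif2ak2, and those of Ifih1 and Adar, overlapped in WT. The adaptor Mavs was thus the most abundant of the 7 transcripts in T403A and the sixth in WT, and Dhx58 was the least abundant in T403A and the second in WT. The 3 receptor genes summed to 87.6 TPM in T403A against 122 TPM for the 2 adaptor genes, a quotient of 0.717. In WT they summed to 402 TPM against 96.0 TPM, a quotient of 4.19. TPM takes no account of the TMM scaling, so it is used here for comparisons within a library.

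**Figure D2:**
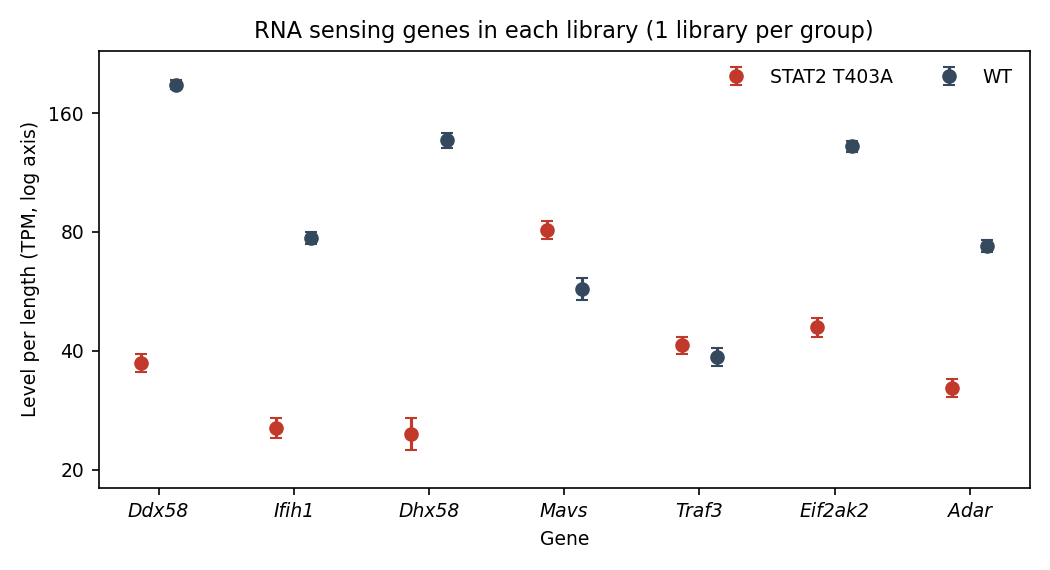
Level per length of each gene in the T403A library (red, left of each pair) and the WT library (dark, right), in TPM on a log axis. Points are single libraries and bars are exact 95% Poisson intervals for counting error; Mavs tops the T403A library at 80.9 TPM and Ddx58 the WT library at 189 TPM. TPM is scaled in each library by the sum of counts per length and not by TMM. Traf3 therefore lies slightly higher in T403A here (41.3 and 38.5 TPM) though its TMM-scaled ratio is 0.892.

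Setting one gene's ratio against another's removes the library scaling altogether, and 21 pairs were compared this way with exact conditional intervals on the 4 counts. In 19 of the 21 pairs the interval excluded 1. The exceptions were Ddx58 with Dhx58 (1.09, 0.971 to 1.23) and Ifih1 with Eif2ak2 (0.954, 0.868 to 1.05), which counting error did not separate. Relative to Mavs, the T403A to WT ratio was 7.11-fold lower for Ddx58 (6.43 to 7.86) and 7.76-fold lower for Dhx58 (6.80 to 8.87). It was 4.23-fold lower for Ifih1 (3.81 to 4.71), 4.04-fold for Eif2ak2 (3.64 to 4.49) and 3.22-fold for Adar (2.90 to 3.57). Relative to Traf3, the 5 genes were 2.46-fold (Adar, 2.23 to 2.70) to 5.93-fold (Dhx58, 5.23 to 6.73) lower. Ddx58 was 1.68-fold lower relative to Ifih1 (1.53 to 1.83), so the signalling receptors differed from each other in these libraries.

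Reads that fall on overlapping genes limit 3 of the 7 counts, since whether counting used strand is not stated. In GENCODE M21, 16.8% of the Adar exon bases are shared with Chrnb2 on the opposite strand. Chrnb2 itself had 63 counts in T403A and 31 in WT. An antisense gene covers 4.31% of the Dhx58 exon bases and a noncoding RNA 3.40% of those of Eif2ak2, also on the opposite strand. The exons of Ddx58, Ifih1, Mavs and Traf3 overlap no other annotated gene. For all 7 genes the deposited length equals the union of the M21 exons.

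The libraries totalled 18658381 counts for T403A and 16033032 for WT, and mitochondrial transcripts took 2.46% and 1.93% of them. Stat2 itself was at 84.4 CPM in T403A and 376 CPM in WT, 4.46-fold lower (4.22 to 4.71); the count of a gene does not test for a single substituted residue. Macrophage markers (Cd68, Csf1r, Adgre1, Itgam, Mertk and Lyz2) were all measured, summing to 38292 CPM in T403A and 48028 CPM in WT, with Adgre1 and Itgam lower in T403A. Of 5 measured monocyte markers 3 were lower, among them Ly6c2 and Hp, with a list sum of 53.3 CPM in T403A and 305 CPM in WT and no marker at 0. The other measured markers Ccr2, at 25.1 CPM in T403A and 22.7 CPM in WT, and Chil3, at 1.35 and 1.20 CPM, were within 1.5-fold. The part of this list in the differences of the RNA sensing genes was not tested; in bulk RNA, fewer cells of a type and less RNA per cell cannot be told apart. Markers of other cells were near 0: neutrophil markers summed to 11.3 CPM in T403A and 8.73 CPM in WT, and Ly6g and Elane were at 0 in both libraries. Dendritic cell markers summed to 2.06 CPM in T403A and 2.33 CPM in WT, and stromal markers to 2.61 and 3.33 CPM in the same order. Lymphocyte markers summed to 0.301 CPM in T403A and 0.200 CPM in WT, and 5 of 7 were at 0 in both libraries. With total counts in place of TMM, the median log2 ratio over the table was higher by 0.19, and the calls over the table were then 890 lower and 2290 higher, against 1214 lower and 1515 higher with TMM.

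The wider pathway around the 7 genes was followed over 7 lists of cofactors, inhibitors, signalling partners and related RNA-binding genes, 115 measured genes in all. Of these, 18 were lower in T403A (15.7%) and 1 was higher (0.870%), beside 10.8% lower and 13.5% higher over all 11199 genes. With total count scaling 14 of the 115 were lower (12.2%) and 4 were higher (3.48%), beside 890 lower and 2290 higher of all 11199 genes under that scaling. The median log2 ratio of the 115 genes was -0.17, against 0.01 over all 11199 genes. Total count scaling moves all ratios up by 0.19, those of the 115 genes and of the whole table alike.

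Among 14 cofactors of the receptors, 5 were lower (35.7%, beside 10.8% of all genes), 0 were higher and 9 were neither. Ddx60, a helicase related to the antiviral response, was at 11.2 CPM in T403A and 127 CPM in WT, 11.3-fold lower (interval of the ratio 0.0764 to 0.101). Trim25, the ubiquitin ligase first linked to RIG-I activation, was at 222 CPM in T403A and 477 CPM in WT, 2.15-fold lower. Rnf135, the ligase Riplet that acts on RIG-I, was at 17.8 CPM in T403A and 28.2 CPM in WT, 1.59-fold lower. The other lower cofactors were Zc3hav1, which encodes the zinc finger antiviral protein, at 1.79-fold, and Mex3c at 1.55-fold. With total count scaling the calls of Rnf135 and Mex3c were lost, at 1.39-fold and 1.35-fold lower, and Hdac6 was called higher; at a 2-fold threshold 2 cofactors, Ddx60 and Trim25, were lower. Ywhae, which encodes the chaperone that carries RIG-I to membranes, was at 300.2 CPM in T403A and 366 CPM in WT, within 1.5-fold.

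Among 19 measured inhibitors of the pathway, 3 were lower (15.8%, near the 10.8% of all genes), 0 were higher and 16 were neither. Isg15, a ubiquitin-like modifier, was at 8.42 CPM in T403A and 161 CPM in WT, 19.1-fold lower. Usp18, the protease that removes ISG15 and damps interferon signalling, was at 4.61 CPM in T403A and 66.9 CPM in WT, 14.5-fold lower. Nlrc5 was 2.20-fold lower. The abundant inhibitors Pcbp1, at 257 CPM in T403A and 276 CPM in WT, and Tax1bp1, at 214 and 274 CPM, were within 1.5-fold.

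Downstream of MAVS, 4 of 24 genes were lower (16.7%, near the 10.8% of all genes), 1 was higher and 19 were neither. Irf7, a factor that drives the later wave of interferon genes, was at 18.4 CPM in T403A and 581 CPM in WT, 31.6-fold lower, and 1.19% of its exon bases are shared with Phrf1 on the opposite strand. Its partner Irf3, which is made constitutively, was at 38.8 CPM in T403A and 35.7 CPM in WT, a ratio of 1.09. The kinase gene Tbk1 was at 156 CPM in T403A and 204 CPM in WT, a ratio of 0.765, while the related kinase gene Ikbke was 1.84-fold lower. Hsp90aa1, a chaperone of TBK1, was at 170.2 CPM in T403A and 349 CPM in WT, 2.05-fold lower, and Azi2, a TBK1 adaptor, 1.55-fold lower. With total count scaling Azi2 was 1.36-fold lower and no longer called, and Mfn1 was called higher. The 1 higher gene was Tmem173, which encodes the DNA-pathway adaptor STING, at 52.5 CPM in T403A and 31.5 CPM in WT, a ratio of 1.67 (1.49 to 1.86).

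The TRAF family and the regulators of TRAF3 held 17 measured genes, of which 4 were lower (23.5%, beside 10.8% of all genes), 0 were higher and 13 were neither. Cd40, a receptor that signals through TRAF3, was at 10.1 CPM in T403A and 32.4 CPM in WT, 3.21-fold lower. Traf1 was at 26.2 CPM in T403A and 61.3 CPM in WT, 2.34-fold lower, and Tnfaip3 was 1.72-fold lower. Peli1 was also lower, at 78.4 CPM in T403A and 164 CPM in WT. The other measured TRAF genes (Traf2, Traf4, Traf5, Traf6 and Traf7) were neither, as was Traf3 itself. Birc3, which encodes a ligase that partners with TRAF proteins, was at 192 CPM in T403A and 268 CPM in WT. Otud5, which encodes the deubiquitinase DUBA that acts on TRAF3, was at 126 CPM in T403A and 186 CPM in WT, 1.48-fold lower and so just inside the threshold.

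Eif2ak2 was lower, and the other kinase genes of its family were within 1.5-fold. The 3 others that phosphorylate eIF2α were neither: Eif2ak1 at 73.2 CPM in T403A and 83.3 CPM in WT, Eif2ak3 at 41.9 and 37.1 CPM, and Eif2ak4 at 43.8 and 35.2 CPM in the same order. Over the list of 17 genes around PKR, 1 was lower (5.88%, beside 10.8% of all genes) and 0 were higher. The lower gene was Ddit3, a stress-induced transcription factor, at 6.32 CPM in T403A and 10.7 CPM in WT (1.69-fold). Ppp1r15a, whose product helps to dephosphorylate eIF2α, was at 46.5 CPM in T403A and 31.1 CPM in WT, a ratio of 1.49 (1.34 to 1.67), just under the threshold. With total count scaling these calls turned: Ddit3 was 1.48-fold lower and not called, and Ppp1r15a was called higher at a ratio of 1.71. Atf4 was at 137 CPM in T403A and 186 CPM in WT, and Dnajc3, an inhibitor of PKR, at 135 and 138 CPM.

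Of 16 measured genes of double-stranded RNA binding and editing, 1 was lower (6.25%, beside 10.8% of all genes) and 0 were higher. That gene was Zbp1, which encodes a sensor of left-handed RNA that shares a nucleic acid-binding domain with long ADAR1, at 8.93 CPM in T403A and 204 CPM in WT, 22.8-fold lower. The second editing enzyme gene, Adarb1, had 41 counts in T403A and 40 in WT, and Adarb2 was listed at 0 in both. The abundant Son and Dhx9 were at 597 and 175 CPM in T403A, and at 771 and 199 CPM in WT. Of 16 other helicase genes linked to RNA sensing, Ddx60 alone was lower (also 6.25%) and 0 were higher. Ddx5 was at 1039 CPM in T403A and 1336 CPM in WT, and Ddx3x at 520.0 CPM in T403A and 473 CPM in WT, both within 1.5-fold.

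**Figure D3:**
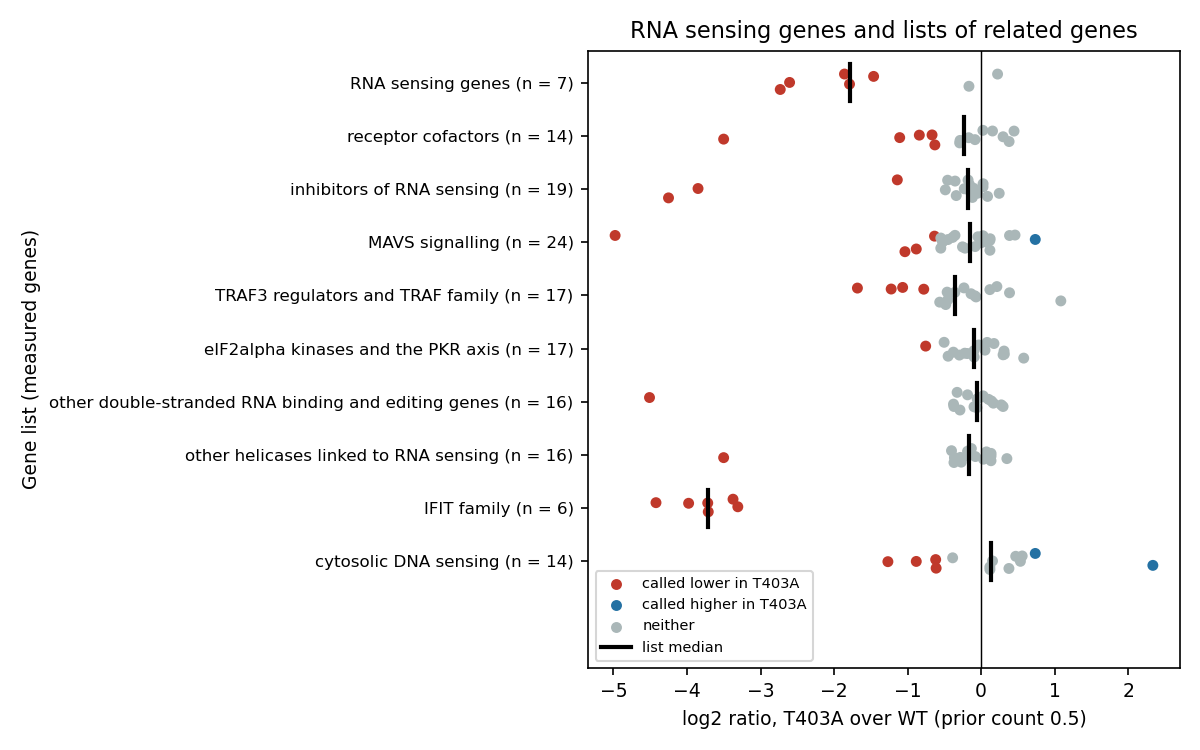
log2 ratio of the T403A over the WT library for the measured genes of each list; 1 point is 1 gene, red called lower, blue called higher, grey neither, and the black bar is the list median. Of the 7 RNA sensing genes 5 are red, while most genes of the cofactor, inhibitor, MAVS, TRAF, eIF2α and helicase lists are grey. The medians of 5 of the related lists shown change sign with scaling by total count.

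Other gene families that interferon is known to induce were also lower in these libraries. All 6 IFIT genes were lower in T403A (100%, beside 10.8% of all genes), with a median log2 ratio of -3.71. Their list sum was 116 CPM in T403A and 1683 CPM in WT. Ifit1bl2 rests on 2 counts in T403A and 19 in WT, and with a count minimum of 100 the IFIT genes called lower were 5. Ifit2 was at 53.9 CPM in T403A and 710 CPM in WT, 13.2-fold lower, and Ifit3 at 20.1 and 430 CPM, 21.5-fold lower. Ifit3b, a close copy of Ifit3, was 15.8-fold lower, and how the counting shared reads between these copies is not known. All 8 measured oligoadenylate synthetase genes were lower, also beside 10.8% of all genes. Oasl2 was at 35.7 CPM in T403A and 768 CPM in WT, 21.5-fold lower, and Oasl1 at 0.853 and 111 CPM, 131-fold lower. Oas3 was 18.8-fold lower and Oas1g 42.0-fold lower, the second of these within a cluster of near-identical Oas1 copies whose reads may be split. At the other end of the family, Oas1b was at 3.61 CPM in T403A and 23.7 CPM in WT and Oas1c at 2.71 and 7.20 CPM. The log2 ratio of Dhx58, -2.73, lay above that of each IFIT gene (highest Ifit1bl1, -3.31), but below that of Oas1c, -1.40. For Oas1b, at -2.71, the interval of the ratio (0.116 to 0.196) held that of Dhx58 (0.136 to 0.167). The interval of Ifit1bl2 (0.00894 to 0.328) held it too, so counting error did not separate Dhx58 from Oas1b or Ifit1bl2.

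Of 7 measured genes of interferon receptors and signalling, 5 were lower in T403A (71.4%, beside 10.8% of all genes), 0 were higher and 2 were neither. With total count scaling 4 were lower (57.1%, beside 890 of all 11199 genes). At a 2-fold threshold 3 were lower, beside 6.08% of all genes. Irf9, which encodes the DNA-binding partner of STAT2, was at 45.9 CPM in T403A and 126 CPM in WT, 2.73-fold lower. Of the interferon receptor genes, Ifnar1 was at 232 CPM in T403A and 447 CPM in WT, 1.93-fold lower. Ifnar2 was 1.59-fold lower, a call that was lost with total count scaling, at 1.39-fold lower. The receptor-bound kinase genes were neither, Jak1 at 324 CPM in T403A and 347 CPM in WT and Tyk2 at 169 and 133 CPM. Transcripts of the interferons themselves were at the limit of detection: 17 of 19 type I and III interferon genes had a count of 0 in both libraries, which allows up to 0.150 CPM in T403A and 0.200 CPM in WT. Ifnb1 had 1 count in T403A and 0 in WT, and Ifnk 0 in T403A and 1 in WT.

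Over the whole table, the share of genes called lower was set out by ISRE letters in the promoter window, as a description with no test. Of 360 measured genes with the ISRE letters in a window, 105 were lower in T403A (29.2%), against 838 of 8578 measured genes with a window and no such letters (9.77%). The median log2 ratios of these sets were -0.13 and 0.02. Among the 360 genes with the letters, 41 were higher (11.4%), beside 13.5% of all 11199 genes. Ddx58, Ifih1 and Eif2ak2 are among the 105. Most genes with the letters were not lower, and 11.1% of the lower genes with a window held them, against 4.03% of all measured genes with a window.

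**Figure D4:**
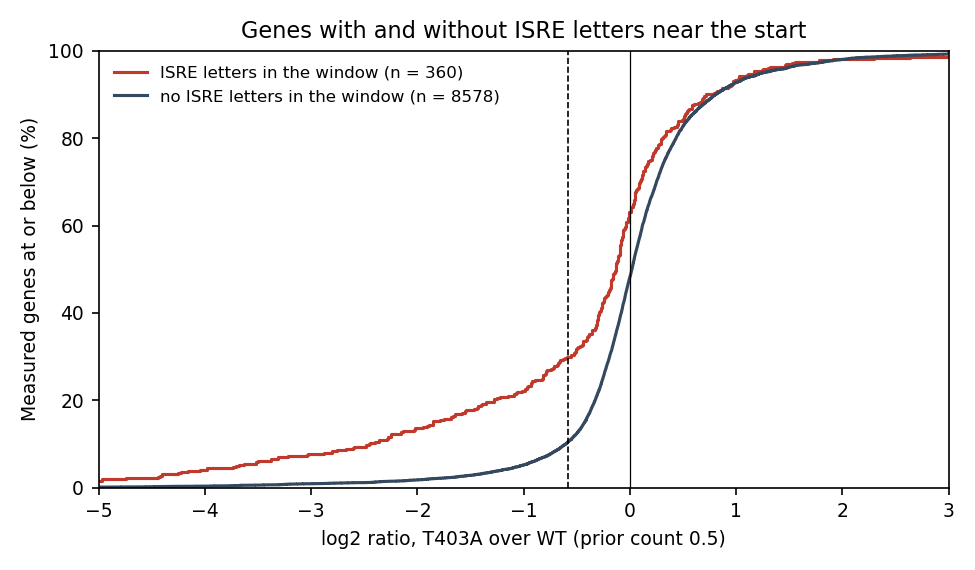
Cumulative share of measured genes (%, vertical axis) at or below each log2 ratio of T403A over WT (horizontal axis), for 360 genes with ISRE letters in a promoter window (red) and 8578 without (dark). The dashed line marks 1.5-fold lower; 13.6% of genes with the letters and 1.81% of genes without lie at or below a log2 ratio of -2.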

How the data were processed

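Per the labels' protocols, 1 μg of TRIzol-extracted, DNase-treated RNA was used for each of the libraries, 1 STAT2 T403A and 1 WT. Per the file headers, the deposited values are read counts for each Ensembl gene, beside its length. GRCm38 and the tools HTSeq 0.9.1, HISAT2, DESeq 1.30.0 and cutadapt 1.15 come from the submitters' processing notes, which were read without their roles. The annotation release and strand setting were not given in the sources used here. Columns were matched to samples by title, and 21949 of 22060 identifiers were given a symbol.

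Counts were scaled with TMM (edgeR 4.0.16, R 4.3.3). Ratios carry exact Clopper-Pearson intervals and pairs exact conditional intervals (scipy 1.17.1); all cover counting error only, not variation between animals, cultures or library preparations. A gene counted as measured from 20 counts over both libraries. log2 ratios of lists, and those given as log2, used a prior count of 0.5 per library. A count of 0 allows up to 3 counts. TPM used the deposited length. The procedure was run on simulated counts with known changes and counting error only, which cannot check the calls against variation between animals or cultures. Alternatives were other scalings (total count, DESeq2 1.42.0 size factors, upper quartile), count minimums of 1 and 100, a 2-fold threshold and a prior count of 2.

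The 7 genes and all lists were chosen with earlier results of these data known. Named genes are the 7, Stat2, and from each list the 2 with the interval bound farthest from 1 and the 2 with the highest count; genes named beyond this rule were chosen after their values were seen. Gene positions come from GENCODE M21 (GRCm38) and promoter sequences from RefSeq (GRCm38.p6). Some list genes are not reported here.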

Additional observations from a re-analysis of the deposited data

How the results depend on the processing

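The 5 calls of Ddx58, Ifih1, Dhx58, Eif2ak2 and Adar were kept under every scaling, count minimum and threshold tried, and their median log2 ratio with Mavs and Traf3 ran from -1.80 to -1.60. Mavs moved to a ratio of 1.33 and Traf3 to 1.02 with total count scaling, both still within 1.5-fold. Over all 11 related lists, the number of higher genes was 9 with total count scaling and 6 with upper quartile scaling, against 3 with TMM. The number of lower genes was 33 and 36 in the same order, against 40 with TMM. The share of measured genes was not computed for the 11 lists together, so these counts show only the shift with scaling. They include the IFIT, oligoadenylate synthetase and interferon signalling lists, where 6 of 6, 8 of 9 and 5 of 7 were lower with TMM. Of the 115 genes in the other 7 pathway lists, 15.7% were lower and 0.870% higher with TMM. With total count scaling these shares were 12.2% and 3.48%. Over all 11199 measured genes, total count scaling gave 2290 higher genes and upper quartile scaling 1748, against 1515 with TMM. Lower genes numbered 890 and 1076 in the same order, against 1214 with TMM. The 2-fold threshold gave 681 lower and 808 higher. The median log2 ratio of all genes was -0.0038 with a count minimum of 100. Without length correction, 5 genes in T403A and 6 in WT changed place in the order of levels. With GAAANNGAA, 4 genes matched in place of 3. No paired analysis was possible because each group has 1 library, and for the same reason no library could be left out. Differences between cultures or animals cannot be told apart from differences between genotypes here.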

Other observations

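In the neighbouring pathway of cytosolic DNA sensing, 4 of 14 measured genes were lower in T403A (28.6%, beside 10.8% of all genes), 2 were higher (14.3%, about the 13.5% of all genes) and 8 were neither. The median log2 ratio was 0.14. With total count scaling 2 were lower (14.3%) and 5 higher (35.7%), beside 890 lower and 2290 higher of all 11199 genes under that scaling. Samhd1, which encodes a nucleotide hydrolase that restricts viruses, was at 386 CPM in T403A and 929 CPM in WT, 2.41-fold lower. Cgas, the DNA sensor that makes the messenger cGAMP, was at 17.5 CPM in T403A and 26.9 CPM in WT, 1.53-fold lower, a call lost with total count scaling. Enpp1, which encodes the enzyme that breaks down cGAMP outside cells, was at 16.3 CPM in T403A and 3.20 CPM in WT, a ratio of 5.09 (3.75 to 7.05). The RNase H2 subunit genes Rnaseh2b and Rnaseh2c had ratios of 1.45 and 1.47, just under the threshold and past it with total count scaling, and 24.8% of the Rnaseh2c exon bases are shared with Kat5 on the opposite strand.

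Trex1, a DNA exonuclease gene, was listed at 0 in both libraries, and 100% of its exon bases are shared with Atrip on the same strand, which had 285 counts in T403A and 228 in WT. Its level can therefore not be read from this table.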
